A study of Mus musculus with 4 samples.

Results

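The genes described here are 7 of the 31053 genes listed in the count matrices: the chemokines Ccl2, Ccl7, Ccl8, Ccl12 and Cx3cl1, and the receptors Ccr2 and Cx3cr1. They were taken by name as the CCR2 and CX3CR1 axes of monocyte attraction, and all 7 were detected, with 795 UMIs (Cx3cl1) to 24407 UMIs (Ccl2) over all barcodes. The question asked of them was which cell classes of the injured carotid held each transcript, and how that changed with time. Ensembl identifiers were ENSMUSG00000035385 for Ccl2, ENSMUSG00000035373 for Ccl7, ENSMUSG00000009185 for Ccl8, ENSMUSG00000035352 for Ccl12, ENSMUSG00000031778 for Cx3cl1, ENSMUSG00000049103 for Ccr2 and ENSMUSG00000052336 for Cx3cr1.

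Carotid arteries of C57BL/6 male mice, 11 weeks old before injury, were taken uninjured (day 0) or at 3, 7 and 14 days after a wire was passed through the vessel. No other allele or agent was part of any group. Arteries of several animals were pooled and digested into 1 droplet single-cell library per day, from which dead cells had been removed, and thrombosed vessels were not used. With 1 library per day there is no replicate: differences between days are differences between 4 libraries, no p-value was computed, and every interval given is a 95% interval for counting error alone.

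CCR2 is the receptor that draws classical monocytes out of the bone marrow and into inflamed tissue, and Ccl2, Ccl7, Ccl8 and Ccl12 are secreted chemokines encoded in the same gene cluster. Ccl2, Ccl7 and Ccl12 act through CCR2, whereas mouse Ccl8 is known chiefly as a ligand of CCR8. Cx3cl1 (fractalkine) is made as a membrane-tethered chemokine that proteases release, and its receptor CX3CR1 marks patrolling monocytes, many tissue macrophages and subsets of lymphocytes.

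After filtering, 329, 1506, 2693 and 1091 cells remained on days 0, 3, 7 and 14, with a median of 5688, 4818, 6347 and 9320 UMIs. Clusters were named from marker genes without use of the members, and each name carries "-like" because no annotation by the authors was used. Of 5619 cells, 794 (14.13%) stayed unnamed. The libraries shared 217 of 5944 barcode sequences. The makeup of the libraries changed with the day: fibroblast-like cells were 70.8%, 13.1%, 6.24% and 45.3% of cells, and monocyte/macrophage-like cells 0.608%, 33.9%, 34.3% and 16.04%. Levels below are CPM (the UMIs of a gene scaled to the UMIs of its class), from 3′ counts that do not scale with transcript length. Fewer cells with the transcript and less transcript per cell cannot be told apart in such a sum, so shares of cells are given beside it, after each cell was thinned to 1000 UMIs. Of the fibroblast-like cells of day 3, 76 of 197 were too shallow for that and were left out. The thinned shares of that class and day thus describe only its deeper cells. Counts of cells with a UMI that are not said to be thinned are raw and depend on depth.

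On mouse chromosome 11 the order of protein-coding genes in the RefSeq annotation is Ccl2, Ccl7, Ccl11, Ccl12, Ccl8 and Ccl1. Ccr2 lies on chromosome 9 beside Ccr3, Cx3cr1 lies on the same chromosome, and Cx3cl1 lies between Ccl22 and Ccl17 on chromosome 8. The promoters of the neighbours Ccl12 and Ccl8 are shown because these neighbours differed in their day 3 sources, Ccl8 with 41.6% of its UMIs in fibroblast-like cells and Ccl12 with 2 UMIs there. Each sequence is the 250 bases before the start of the gene in RefSeq, build GRCm38.p6, plus strand, at chr11:82101595-82101844 for Ccl12 and chr11:82114935-82115184 for Ccl8, with TATAAA in capitals.
Ccl12: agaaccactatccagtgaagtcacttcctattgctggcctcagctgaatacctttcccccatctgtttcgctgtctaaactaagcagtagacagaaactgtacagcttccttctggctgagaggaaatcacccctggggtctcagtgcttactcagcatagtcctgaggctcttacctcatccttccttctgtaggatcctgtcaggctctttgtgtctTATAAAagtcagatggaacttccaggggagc
Ccl8: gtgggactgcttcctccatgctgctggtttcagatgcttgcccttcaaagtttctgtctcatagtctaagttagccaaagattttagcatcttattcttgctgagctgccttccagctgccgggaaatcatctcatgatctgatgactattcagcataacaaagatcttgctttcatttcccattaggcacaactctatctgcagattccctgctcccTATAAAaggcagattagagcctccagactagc
The capitals begin 31 bases before the start in Ccl12 and 32 bases before it in Ccl8. On either strand, TATAAA was present in 12.4% of the 32851 promoter windows of this length. Neither window held TGANTCA, the letters of an AP-1 site (6.75% of promoter windows), which says only that these letters were not in these windows. Promoters were matched for 5 of the 7 members, not including Ccl2 and Ccl7.

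The day 0 library held few UMIs of Ccl2, Ccl7 and Ccl8 and none of Ccl12, and its Ccl2 and Ccl7 lay mainly in a shallow unnamed cluster described below. Ccl2 was counted 46 times in the day 0 library and 12559, 8740 and 1506 times on days 3, 7 and 14, or 17.4, 690, 330 and 116 CPM. Ccl7 stood at 13.6, 481, 180 and 57.3 CPM and Ccl8 at 17.0, 125, 47.2 and 34.9 CPM. Day 3 was thus the highest day for these 3 genes and day 0 the lowest. Ccl12 had 0 UMIs on day 0 and then 151, 154 and 34.6 CPM, so that days 3 and 7 were level, although 1 cell held 33.1% of the day 7 UMIs. Ccr2 was at 5.30, 393, 333 and 101 CPM, Cx3cr1 at 3.03, 73.4, 119 and 69.2 CPM, and Cx3cl1 at 12.5, 9.61, 15.3 and 9.67 CPM. Only Cx3cl1 kept a day 0 level within the range of the injured days.

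Monocyte/macrophage-like and fibroblast-like cells held most of the Ccl2, Ccl7, Ccl8 and Ccl12 transcripts after injury, in different proportions for each gene. Monocyte/macrophage-like cells held 49.9% of the Ccl2 UMIs of day 3 and fibroblast-like cells 35.6%, although fibroblast-like cells were 13.1% of the cells. For Ccl7 the shares were 46.2% and 43.1%, and for Ccl8 45.5% and 41.6%. Ccl12 stood apart, with 90.2% of its UMIs in monocyte/macrophage-like cells and 2 UMIs in all fibroblast-like cells of that day. On day 14 fibroblast-like cells held 61.5% of Ccl7 and 77.6% of Ccl8, when they held 68.3% of all UMIs, and the level of Ccl7 was higher in monocyte/macrophage-like cells (182 against 51.6 CPM, or 120.8 against 38.81 CPM without the richest cell of each class). The order of the Ccl8 levels turned on 1 cell that held 55 of the 96 monocyte/macrophage-like UMIs: they were 67.9 against 39.6 CPM, and 29.21 against 35.11 CPM without the richest cell of each class, an alternative chosen after seeing the data. Ccl12 lay in monocyte/macrophage-like cells on that day (92.9%). On day 7, Ccl8 was concentrated in monocyte/macrophage-like cells (88.4%, when the class held 33.7% of all UMIs).

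**Figure D1:**
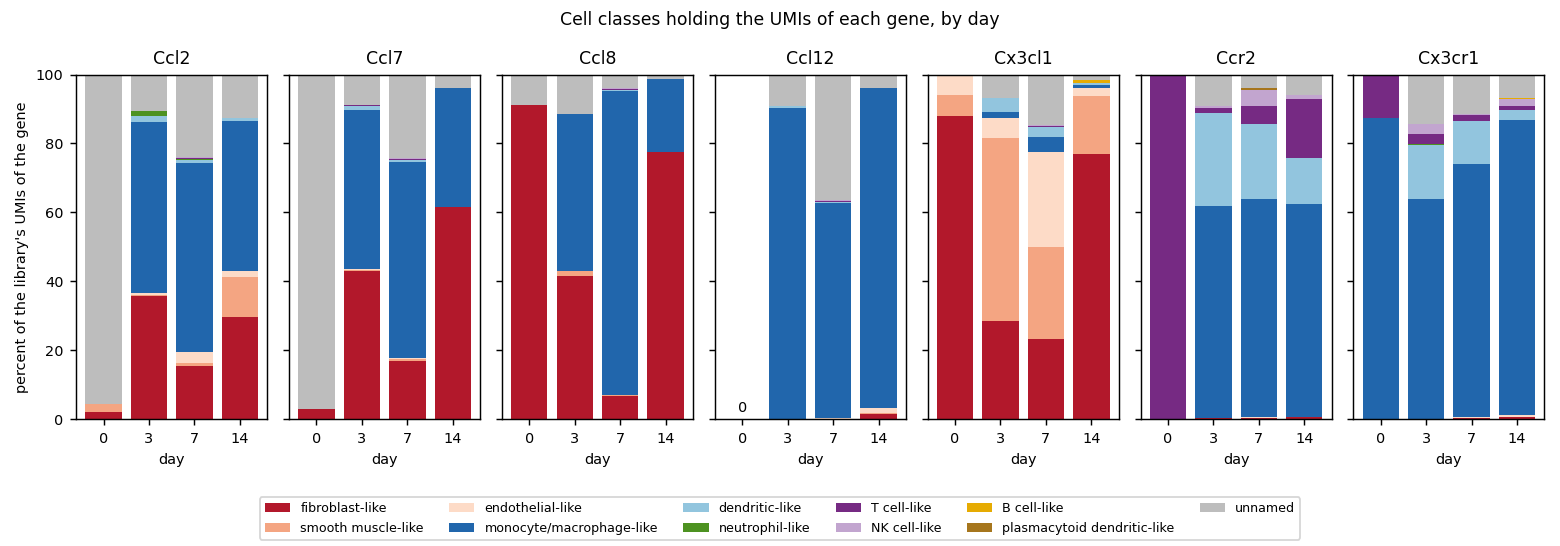
Stacked bars give, for each gene and day (1 library per day), the percent of the gene's UMIs that lay in each cell class. Ccl12 lay in monocyte/macrophage-like cells (90.2%, 62.6% and 92.9% on days 3, 7 and 14) and, on day 7, in unnamed cells; Ccl8 lay mostly in fibroblast-like cells on days 0 and 14 (91.1% and 77.6%, when the class held 83.96% and 68.3% of all UMIs), and Cx3cl1 mostly in wall cells; the day 0 bars of Ccr2 and Cx3cr1 rest on 14 and 8 UMIs, and Ccl12 had 0 UMIs on day 0.

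One cell changed the picture of day 7. A single unnamed cell of 110620 UMIs, in a cluster led by the proliferation genes Mki67 and Hist1h2ap, held 1351 Ccl12 UMIs (33.1% of that library), 1105 Ccl2 UMIs (12.6%) and 455 Ccl7 UMIs (9.54%). Without it the monocyte/macrophage-like share of day 7 Ccl12 was 93.5% instead of 62.6%, and that of Ccl2 62.6% instead of 54.7%. Its part as a possible multiplet was not tested.

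In fibroblast-like cells Ccl2 and Ccl7 were near zero before injury and highest on day 3. Ccl2, the main CCR2 ligand, had 1 UMI in the 233 fibroblast-like cells of day 0 (0.451 CPM) and 4473, 1357 and 447 UMIs on days 3, 7 and 14 (973, 280 and 50.2 CPM). Ccl7, which binds CCR2 and other chemokine receptors, likewise went from 1 UMI to 3771, 803 and 459 UMIs (821, 166 and 51.6 CPM). Both were lower at each later day. The day 3 to day 0 ratio was 2159 for Ccl2 (387 to 85310) and 1820 for Ccl7 (326.5 to 71920), the width coming from the single day 0 UMI of each. Without the cell richest in the gene on each day, day 0 had 0 UMIs, and day 3 was at least 614.4-fold and 541.5-fold higher, taking 3 UMIs over the day 0 class. With each library clustered on its own the ratio was 728.9 for Ccl2, and Ccl7, with 0 UMIs on day 0, was at least 397.1-fold higher. Much lower ratios came from adding an unnamed shallow cluster to the class and, for Ccl7, from averaging the CPM of single cells. They are given below. Day 14 was 0.0516 of day 3 for Ccl2 and 0.0628 for Ccl7. In the thinned cells, Ccl2 was found in 0%, 24.8%, 7.83% and 1.25% of fibroblast-like cells, against 0 of 66, 1.04% and 0.990% of T cell-like cells on days 3, 7 and 14, a class not expected to make it (median 5382, 5595 and 4888 UMIs before thinning, against 2382, 28273 and 18664 in fibroblast-like cells). The day 14 share was thus near the share in T cell-like cells, which was 1 cell of 101, whereas by level that day's T cell-like cells had 1.77 CPM against 50.2 CPM. The day 3 share leaves out the shallow cells. A shallow cluster led by Clec3b and Gsn (107 cells of that day) held 8 of the 4473 Ccl2 UMIs, so the share in the whole class may be lower.

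Ccl8 followed another course in the same cells. Fibroblast-like cells had Ccl8 before injury (41 UMIs in 12 of 233 cells, 18.5 CPM), and reached 206 CPM on day 3, 17.5 CPM on day 7 and 39.6 CPM on day 14. Day 3 was 11.2 times day 0 (8.17 to 15.7), and 18.25 times without the richest cell of each day, which held 18 of the 41 day 0 UMIs, or 40.51 times with each library clustered on its own. Day 7 was 0.949 of day 0 (0.646 to 1.41), but 1.525 times day 0 without those cells and 3.88 times with each library clustered on its own, so the direction of this difference is not settled. Day 14 was 2.15 times day 0 (1.55 to 3.04), or 3.373 times without those cells and 7.677 times with each library clustered on its own. By a rule of at least 2-fold and at least 20 UMIs in 1 of the days, Ccl2, Ccl7 and Ccl8 were higher on day 3 than on day 0, as were 10.0% of all genes tested in this class, and Cx3cl1 was not (0.832, 0.517 to 1.36). Against day 0, the 3 genes were also called on day 14 (9.16% of all genes), and Ccl2 and Ccl7 on day 7 (10.6%). From day 3 to day 7 all 3 were called lower (3.41% of genes), and so were they from day 3 to day 14 (5.92%).

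**Figure D2:**
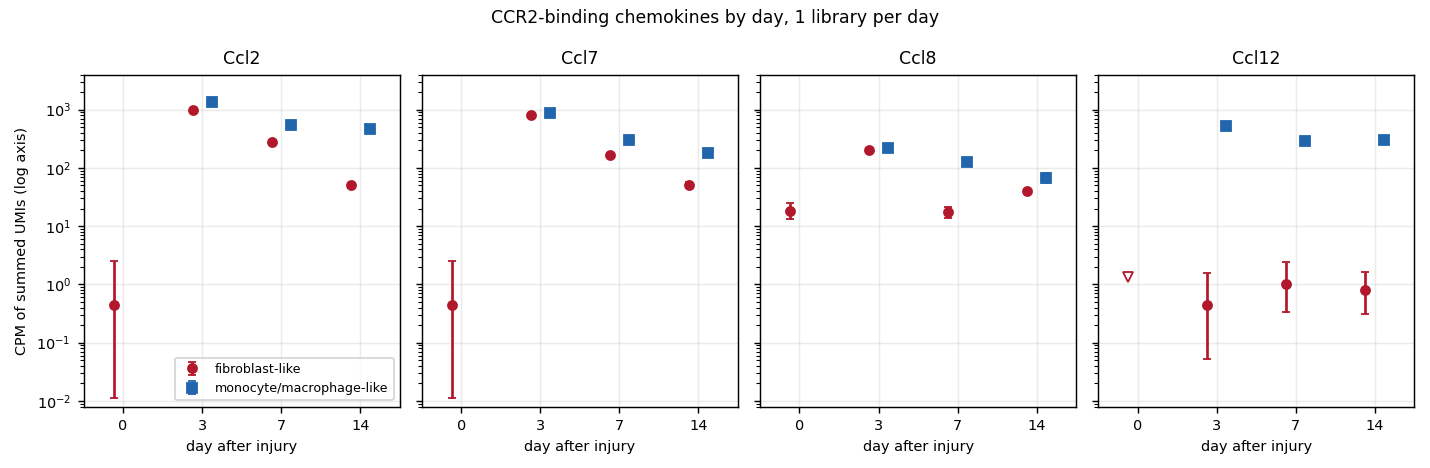
Points give the CPM (log axis) of the 4 secreted chemokines in fibroblast-like cells (red circles) and monocyte/macrophage-like cells (blue squares) by day, with 95% Poisson intervals, for classes of at least 20 cells; the open triangle marks 0 UMIs, drawn at the level that 3 UMIs would give. On day 3 the monocyte/macrophage-like and fibroblast-like levels are 1332 and 973 CPM for Ccl2, 860 and 821 for Ccl7, 220 and 206 for Ccl8, and 527 and 0.435 for Ccl12.

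Different clusters made up the fibroblast-like class on each day, and on days 3 and 7 most of the Ccl2 and Ccl7 lay in 1 of them. On day 0 the class was mainly a cluster led by Rbp4 and Fmo2 (145 cells) and one led by Clec3b and Gsn (78 cells). Day 3 held 107 cells of the Clec3b and Gsn cluster (median 778 UMIs), 42 of a cluster led by the acute-phase gene Saa3 and by Prg4 (median 64052 UMIs) and 38 of a matrix cluster led by Col3a1 and Eln. The Saa3 and Prg4 cluster held 91.0% of the class's Ccl2 UMIs and 93.6% of its Ccl7 UMIs on day 3, with 58.4% of all UMIs of the class. Within it Ccl2 stood at 1515 CPM (38 of 42 cells with a UMI) and Ccl7 at 1315 CPM (42 of 42 cells). These counts of cells are before thinning, in the deepest of the 3 clusters. On day 7 it was 28 cells, and it still held 84.8% of Ccl2 and 87.7% of Ccl7, at 966 and 591 CPM. Without this cluster (an alternative added once the values were known) the day 3 to day 0 ratio was 470.3 for Ccl2 and 278.7 for Ccl7.

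Ccl8 was spread more widely over these clusters. The Saa3 and Prg4 cluster held 47.8% of the class's Ccl8 on day 3, at 169 CPM, below the 277 CPM of the Col3a1 and Eln cluster (27 of 38 cells with a UMI). In the Clec3b and Gsn cluster the day 3 level was 584 CPM, but 60 of its 85 UMIs lay in 1 cell and 13 of 107 cells had any. These counts of cells are before thinning, and the Clec3b and Gsn cluster was shallow. The Clec3b and Gsn cluster had no Ccl7 UMI on day 3. Of thinned fibroblast-like cells of day 3, 16.5% had both Ccl2 and Ccl7 (69.0% of the cells with Ccl7), and 4.13% both Ccl2 and Ccl8 (20.0% of the cells with Ccl8).

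**Figure D3:**
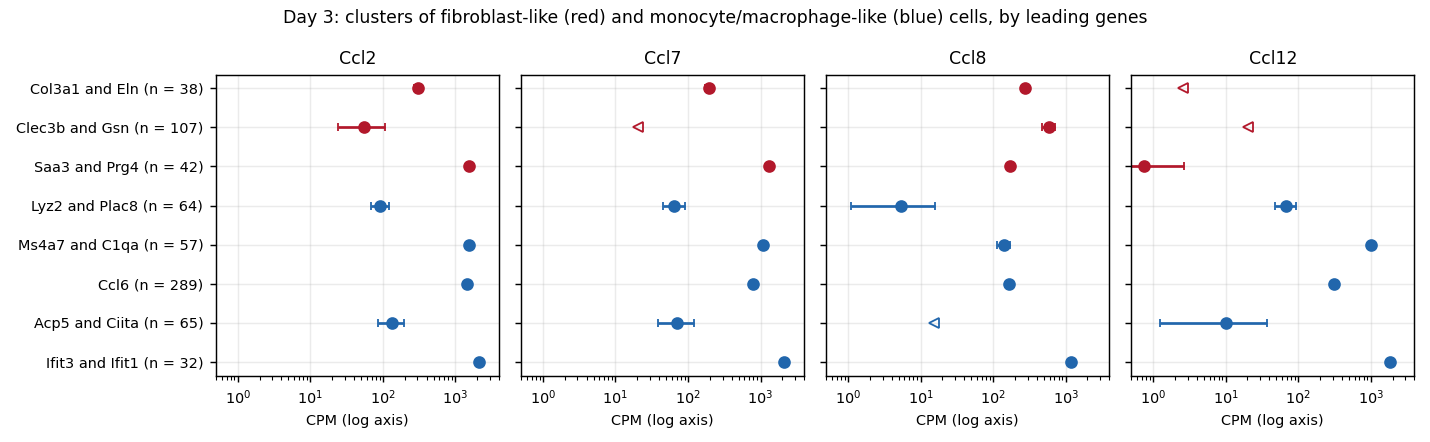
CPM (log axis) of the 4 secreted chemokines on day 3 in each cluster of at least 20 fibroblast-like (red) or monocyte/macrophage-like (blue) cells, named by leading genes, with 95% Poisson intervals; open triangles mark 0 UMIs, drawn at the level of 3 UMIs. Ccl2 and Ccl7 are highest among red clusters in the one led by Saa3 and Prg4, and all 4 genes are highest among blue clusters in the one led by Ifit3 and Ifit1.

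On day 14 the class was mainly the Col3a1 and Eln cluster (201 cells) and a cluster led by C1qtnf3 and Apod (181 cells). The C1qtnf3 and Apod cluster held 75.2% of fibroblast-like Ccl2 (90.5 CPM) and 86.5% of Ccl7 (107 CPM, 32 of 181 cells), although 162 of its 336 Ccl2 UMIs lay in 1 cell. Ccl8 on that day was 105 CPM in the 46 cells of the Rbp4 and Fmo2 cluster and 107 CPM in the Clec3b and Gsn cluster. The cluster led by Saa3 and Prg4 was 1 cell on that day, with no UMI of these 3 genes, and the Col3a1 and Eln cluster held 34.4% of fibroblast-like Ccl8 on day 3 and 27.8% on day 14.

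Single leukocyte markers in fibroblast-like cells were also higher on days 3 and 7, and their part in the chemokine levels was not tested. On days 0, 3, 7 and 14, Lyz2 was 0.451, 24.2, 33.2 and 14.0 CPM, Csf1r 2.71, 10.2, 6.60 and 1.80 CPM, and Ptprc 0.451, 3.48, 9.90 and 1.35 CPM. All 11 fibroblast markers were detected in the class on every day, at a summed 52820 to 94410 CPM. The 17 monocyte and macrophage markers, of which 9 were detected on day 0 and 15 or 16 on the injured days, summed to 2826, 754, 737 and 2679 CPM, against 32660 to 46180 CPM in monocyte/macrophage-like cells of the injured days. Ccl12 in fibroblast-like cells was 0.435 CPM on day 3, where monocyte/macrophage-like cells had 527 CPM.

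The little Ccl2 and Ccl7 of the day 0 library lay outside the named classes. An unnamed cluster led by the stress gene Mt2 and by Timp1, of low depth (median 768 UMIs on day 0), held 43 of the 46 Ccl2 UMIs of day 0 in 16 of its 38 cells, at 1358 CPM, and 34 of the 36 Ccl7 UMIs, at 1074 CPM. Its Ccl2 level on days 3, 7 and 14 was 1212, 416 and 697 CPM. When its cells were added to the fibroblast-like class (also added once the values were known), the day 3 to day 0 ratio was 50.16 for Ccl2 and 51.9 for Ccl7, and 10.16 for Ccl8. The size of the rise of Ccl2 and Ccl7 thus depended on where these shallow cells were placed, and its direction did not.

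Monocyte/macrophage-like cells had the highest Ccl2 of any class on day 3, and all 4 secreted chemokines were lower there afterwards. Ccl2 was at 1332, 535 and 466 CPM on days 3, 7 and 14, Ccl7 at 860, 304 and 182 CPM, and Ccl8 at 220, 124 and 67.9 CPM. Ccl12, a mouse ligand of CCR2, was at 527, 286 and 297 CPM. Day 0 had 2 such cells, with no UMI of any of the 4 genes, and no level was set for it. The ratio of day 14 to day 3 was 0.350 for Ccl2 (0.322 to 0.379), 0.211 for Ccl7 (0.186 to 0.240), 0.308 for Ccl8 (0.247 to 0.380) and 0.563 for Ccl12 (0.506 to 0.625). Ccl2, Ccl7 and Ccl8 were called 2-fold lower on day 14, as were 9.03% of all genes tested in the class, and the median log2 ratio of all genes was -0.15. On day 14, 55 of the 96 Ccl8 UMIs and 88 of the 257 Ccl7 UMIs lay in 1 cell each, and without the richest cell of each day the ratios were 0.1636 and 0.1451. On day 7 Ccl2 and Ccl7 were called lower (3.47% of genes). The Ccl12 difference from day 3 to day 14 did not stand when cells were weighted equally (0.993 for the mean of each cell's CPM).

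The clusters behind this class also changed. Day 3 was led by a cluster with high Ccl6 (289 of 511 cells), day 7 by one with Lyz2 and Plac8 (408 of 923) and day 14 by one with Ms4a7 and C1qa (113 of 175). The Lyz2 and Plac8 cluster carried the monocyte markers (3595 CPM over 10 genes, against 411 CPM in the Ms4a7 and C1qa cluster), and the Ms4a7 and C1qa cluster the macrophage markers (37570 CPM over 11 genes, against 4037 CPM). Within a cluster some of the courses differed from that of the class. In the Ms4a7 and C1qa cluster Ccl2 was 1550, 598 and 511 CPM, Ccl7 1093, 472 and 224 CPM, Ccl12 999, 473 and 306 CPM, and Ccl8 140, 286 and 87.7 CPM, so that Ccl8 alone of the 4 was highest on day 7, with 277 of its 961 UMIs in 1 cell. In the Lyz2 and Plac8 cluster Ccl2 was low throughout, at 91.9, 236 and 273 CPM, the last with 29 of 38 UMIs in 1 cell.

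Among monocyte/macrophage-like clusters of at least 20 cells, a small one led by the interferon-induced genes Ifit3 and Ifit1 stood highest on day 3 for the secreted chemokines. Its 32 cells had 2080 CPM of Ccl2, 2096 CPM of Ccl7, 1200 CPM of Ccl8 and 1823 CPM of Ccl12. On day 7, with 42 cells, these were 436, 126, 151 and 784 CPM, and 72 UMIs of Ccl8 lay in 1 cell. Of the 470 Ccl8 UMIs of day 3, which lay in 10 of the 32 cells, 201 were in 1 cell.

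Pairs of the secreted chemokines were found together in single monocyte/macrophage-like cells, and differences between the pairs were not tested. Of 502 thinned cells of day 3, 17.7% had both Ccl2 and Ccl7, which was 75.4% of the cells with Ccl7. Ccl2 was present in 62.0% of the cells with Ccl12 and in 75.0% of the 24 cells with Ccl8. Both Ccl2 and its receptor Ccr2 were found in 19.9% of cells on day 3 (16.5 to 23.7), 5.99% on day 7 (4.53 to 7.74) and 3.95% on day 14 (1.46 to 8.39).

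On each injured day, 50% of the UMIs of each secreted chemokine lay in a smaller share of its positive cells than for Ccr2 or Cx3cr1. On day 3, 35 of the 495 cells with a Ccl2 UMI held 50% of all Ccl2 UMIs, and 29 of 389 cells did so for Ccl7, 14 of 164 for Ccl8 and 16 of 189 for Ccl12. The corresponding figure was 123 of 666 cells for Ccr2. For Cx3cl1 it was 19 of 80 on day 3, 19 of 141 on day 7 and 22 of 81 on day 14. On day 7 the figure was 20 of 658 cells for Ccl2 and 4 of 288 for Ccl12, but 238 of 1365 for Ccr2, and on day 14 it was 6 of 123 for Ccl2 and 37 of 197 for Ccr2. Counting intervals of the ligands therefore understate the spread that a choice of other cells would give.

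**Figure D4:**
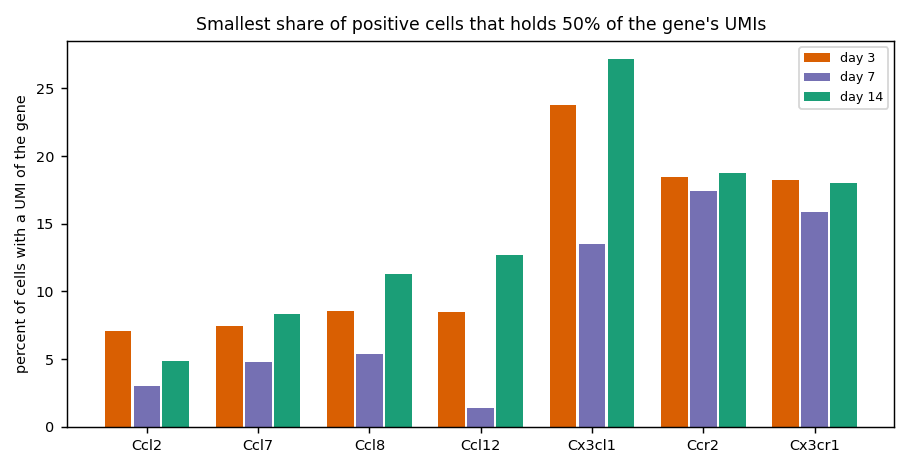
Bars give, for each gene on days 3, 7 and 14 (1 library each), the smallest percent of the cells with a UMI of that gene that together hold 50% of its UMIs. The secreted chemokines lie between 1.39% (Ccl12, day 7) and 12.7% (Ccl12, day 14), below the receptors on the same day, which lie between 15.85% and 18.8%.

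Cx3cl1 was a transcript of the vessel wall. Of its 175 UMIs on day 3, 53.1% lay in smooth muscle-like, 28.6% in fibroblast-like and 5.71% in endothelial-like cells. Smooth muscle-like cells had 31.6, 70.5 and 16.9 CPM on days 3, 7 and 14, and 2 UMIs in 22 cells on day 0. Day 7 was 2.23 times day 3 (1.68 to 2.98; 3.35% of genes were called higher), and day 14 was 0.536 of day 3 (0.317 to 0.868). The class was mainly 1 cluster led by Myh11 and Itga8 on these 3 days (69 of 107, 54 of 69 and 69 of 75 cells). Fibroblast markers in it summed to 10930, 17030 and 8999 CPM on these days and smooth muscle markers to 21170, 16430 and 40950 CPM, so that fibroblast markers were above its own on day 7, and their part in the day 7 levels of this class was not tested. Endothelial-like cells had 49.8 CPM on day 3 (10 UMIs) and 143 CPM on day 7 (112 UMIs in 15 of 57 cells, 38 of them in 1 cell), a ratio of 2.87 (1.501 to 6.14; 18.1% of genes were called higher), and 7.913 without the richest cell of each day. Days 0 and 14 gave 2 and 3 UMIs in 7 and 24 endothelial-like cells, too few to set a level.

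In fibroblast-like cells Cx3cl1 stood at 13.1, 10.9, 19.4 and 10.9 CPM on days 0, 3, 7 and 14. Day 7 was 1.78 times day 3 (1.25 to 2.56), short of 2-fold, and 1.174 times by the mean of the CPM of single cells. On day 0 all 29 UMIs lay in the Rbp4 and Fmo2 cluster (17.9 CPM, 23 of 145 cells), and on day 14 that cluster had 52.6 CPM (20 of 46 cells). Fibroblast-like cells held 77.0% of all Cx3cl1 on day 14 (68.65 to 84.0), when they held 68.3% of all UMIs.

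Some wall cells also had Ccl2, in a handful of cells. Endothelial-like cells stood at 298, 352 and 429 CPM on days 3, 7 and 14, but 47 of 60, 203 of 277 and 18 of 23 UMIs lay in 1 cell on each day. Smooth muscle-like cells stood at 14.9, 46.4 and 141 CPM. From day 3 to day 7 they were called higher for Ccl2 (3.10 times, 2.101 to 4.63) and Ccl7 (2.22 times, 1.27 to 3.91), as were 3.35% of genes, and lower for Ccl8 (28 UMIs to 1), as were 3.26%. Markers of monocytes and macrophages summed to 95.4, 273 and 284 CPM in these cells on days 3, 7 and 14, and their part in the Ccl2 and Ccl7 levels was not tested. T cell-like cells, not expected to make Ccl2, went from 2.61 to 15.6 CPM over the same days (1 to 38 UMIs, 5.99 times, 1.01 to 243), and had 18.3 CPM of Ccl7 on day 3, against 8.83 CPM in smooth muscle-like cells. All 175 Ccl2 UMIs of smooth muscle-like cells on day 14 lay in 1 cell of 75. That cell of 22640 UMIs had 214 UMIs of Acta2, 130 of Tagln, 4 of Myh11, 115 of Col1a1 and 9 of Pdgfra, and without it the day 14 class had no Ccl2 UMI. In neutrophil-like cells Ccl2 was 268 CPM on day 3, with 116 of 180 UMIs in 1 cell. Dendritic-like cells had 72.3 CPM on day 3 and 20.9 CPM on day 7, called lower together with Ccl7 (34.3 to 5.39 CPM, with 74 of 93 day 3 UMIs in 1 cell), as were 2.77% of genes. In 1 endothelial-like cell of day 14 with Ccl12 and Cx3cr1 (6 UMIs each), macrophage markers were present too (28 UMIs of C1qa and 63 of Lyz2, beside 11 each of Pecam1 and Cdh5), and the endothelial-like class of that day had more summed CPM of monocyte and macrophage markers (13640) than of endothelial markers (6188).

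Ccr2, the receptor for Ccl2, Ccl7 and Ccl12, was a transcript of the infiltrating leukocytes. On days 3, 7 and 14 monocyte/macrophage-like cells held 61.4%, 63.3% and 61.7% of its UMIs and dendritic-like cells 27.1%, 21.7% and 13.4%. T cell-like cells held 5.08% on day 7 and 17.1% on day 14. The level in monocyte/macrophage-like cells was 934, 626 and 573 CPM, and day 14 was 0.614 of day 3 (0.569 to 0.662), which is short of 2-fold. In the thinned cells Ccr2 was found in 57.6%, 43.0% and 33.6% of them, against at most 1.2% of fibroblast-like cells on any day. Fibroblast-like Ccr2 was 2.61, 3.71 and 0.899 CPM.

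Cx3cr1 moved the other way in the same class. It was at 181, 259 and 546 CPM on days 3, 7 and 14, and day 14 was 3.02 times day 3 (2.73 to 3.33; 4.88% of genes were called higher), while day 7 was 1.43 times day 3 (1.32 to 1.55). In the thinned cells Cx3cr1 was found in 11.8%, 17.7% and 36.2%. The UMI ratio of Cx3cr1 to Ccr2 in the class was 0.194 on day 3 (0.180 to 0.209), 0.414 on day 7 (0.394 to 0.434) and 0.953 on day 14 (0.863 to 1.05). Cells with Ccr2 and no Cx3cr1 went from 51.2% to 35.03% and 21.1% of thinned cells, cells with Cx3cr1 and no Ccr2 went from 5.38% to 9.76% and 23.7%, and cells with both from 6.38% to 7.98% and 12.5%.

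**Figure D5:**
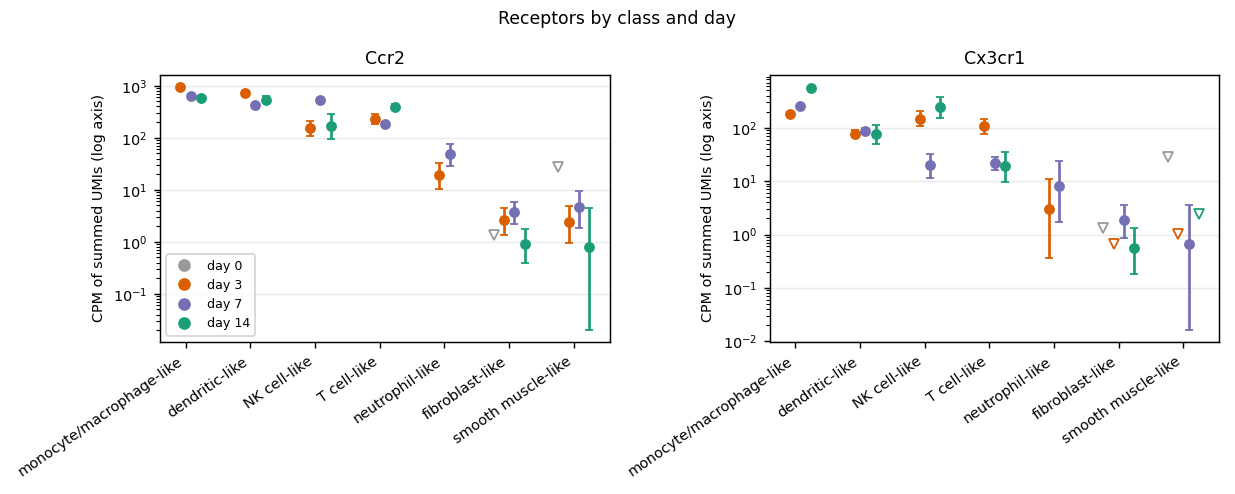
CPM (log axis) of Ccr2 and Cx3cr1 by class and day in classes of at least 20 cells, with 95% Poisson intervals; open triangles mark 0 UMIs, drawn at the level of 3 UMIs. In monocyte/macrophage-like cells Ccr2 goes from 934 to 573 CPM and Cx3cr1 from 181 to 546 CPM between days 3 and 14, and in NK cell-like cells day 7 is high for Ccr2 and low for Cx3cr1.

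Within single clusters the receptors did not all follow the class. In the Ms4a7 and C1qa cluster Cx3cr1 was 407, 455 and 597 CPM and Ccr2 909, 547 and 483 CPM on days 3, 7 and 14, and this cluster held 84.6% of the class's Cx3cr1 and 65.3% of its Ccr2 on day 14. In the Lyz2 and Plac8 cluster Ccr2 was 694, 733 and 855 CPM and Cx3cr1 168, 121 and 388 CPM, the last from 15 cells. A cluster led by Acp5 and Ciita had 849, 558 and 1413 CPM of Ccr2 and 215, 170 and 105 CPM of Cx3cr1. Ccr2 was thus lower on day 14 than on day 3 in the first of these clusters and higher in the others.

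Dendritic-like cells had Ccr2 at 714, 431 and 540 CPM and Cx3cr1 at 77.9, 88.5 and 76.7 CPM on days 3, 7 and 14. Monocyte and macrophage markers summed to more than dendritic markers in this class on each of these days (4467 against 2787, 3448 against 2812 and 3082 against 2613 CPM), and their part in the receptor levels was not tested. Their main cluster on all 3 days, led by Cd209a and Clec10a (131 of 159, 260 of 326 and 27 of 33 cells), had 808, 504 and 627 CPM of Ccr2. Cells led by the migratory dendritic genes Ccl22 and Fscn1 had 59.7 CPM on day 7, with 27 of their 34 UMIs in 1 cell.

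In NK cell-like cells the receptors changed in opposite directions on day 7. Ccr2 was 152, 525 and 172 CPM on days 3, 7 and 14, from 56, 136 and 21 cells of 1 cluster, and Cx3cr1 was 148, 20.0 and 246 CPM, the last with 10 of 20 UMIs in 1 cell. Day 7 was 3.46 times day 3 for Ccr2 (2.50 to 4.89; 6.96% of genes were called higher) and 0.135 of day 3 for Cx3cr1 (0.0705 to 0.246; 3.39% were called lower). None of the 55, 130 and 19 thinned NK cell-like cells had both receptors. At these levels a thinned cell keeps few UMIs of either receptor, and the number expected under independence was not computed. The absence of cells with both therefore does not show whether the receptors exclude each other in single cells. The 9 NK cell markers summed to 17230, 10390 and 15880 CPM in this class on days 3, 7 and 14, and their part in the receptor levels was not tested.

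T cell-like cells had Ccr2 at 229, 185 and 397 CPM and Cx3cr1 at 107, 21.8 and 19.5 CPM. The day 7 to day 3 ratio of Cx3cr1 was 0.204 (0.133 to 0.314; 3.36% of genes were called lower), and the day 14 to day 3 ratio 0.182 (0.0845 to 0.361; 3.97%). NK cell markers in the class were lower too, at a summed 2257, 725 and 705 CPM on days 3, 7 and 14, while T cell markers were at 5135, 4793 and 4869 CPM, and their part in the Cx3cr1 level was not tested. All 41 Cx3cr1 UMIs of day 3 lay in the cluster led by Xcl1 and Ccl5, which had 167, 39.8 and 44.1 CPM on days 3, 7 and 14. Ccr2 was highest in a gamma-delta T cluster led by Trdc and Cd163l1, with 604 CPM on day 7 (23 of 27 cells) and 934 CPM on day 14 (16 of 16 cells). In the Icos and Trac cluster it was 194, 261 and 517 CPM. The 14 Ccr2 UMIs of day 0 lay in T cell-like cells, 12 of them in 1 cell.

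Over the 26 groups of a class and a day with at least 20 cells, the levels were ordered as follows. Ccl2 was highest in monocyte/macrophage-like cells of day 3 and next in fibroblast-like cells of day 3, with intervals apart. For Ccl7 and Ccl8 the same 2 groups led, with overlapping intervals (860 against 821 CPM, and 220 against 206 CPM). Ccl12 was led by the 3 monocyte/macrophage-like groups, of which days 14 and 7 overlapped. Ccr2 was led by monocyte/macrophage-like and dendritic-like cells of day 3, apart from each other, Cx3cr1 by monocyte/macrophage-like cells of day 14, and Cx3cl1 by endothelial-like and then smooth muscle-like cells of day 7.

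The genes of most similar pattern over these groups were found among 11391 genes by Pearson's r of log2(CPM + 10), given as a description, since the groups share libraries and depth. For Ccl2 they were Ctsb (0.779), Mfsd1, Lgmn, Cdc42ep4 and Ccl7 (0.751). Ccl7 was closest to Ccl8 (0.892), followed by Mmp19 (0.803), Nt5dc2, Ccl2 and Slc36a1, and Ccl8 was next closest to Pdpn (0.772), then Mmp19 and Fam213b. The nearest genes to Ccl12 were Tlr7 (0.978), Ms4a7 (0.961), C3ar1 (0.950), Trem2 and Slc7a8. Ccr2 was nearest to Casp1 (0.931), Rap1a, Ptger4, Iqgap2 and Myo1g, and genes near Cx3cr1 included Slamf7, Lair1, Cd48 and Ms4a6c. Cx3cl1 was nearest to Plxna2 (0.937), Efnb2 (0.934), Sema3f, Etl4 and Hrct1. With 1 in place of 10 CPM added, 14 of the 35 genes so found were again among the nearest 5, Casp1 and Plxna2 not among them. Between members, Ccr2 and Cx3cr1 had r = 0.767 and Ccl2 and Ccr2 had r = -0.02.

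A list of 37 other genes of the same axes (ligands of other CC receptors, further receptors, scavenging receptors, adhesion molecules, inducing cytokines and subset genes) was read with the same 2-fold rule. In fibroblast-like cells 18 were tested from day 0 to day 3, of which 9 were higher and 3 lower, beside 10.0% and 9.08% of all genes. Il6, an inflammatory cytokine, went from 0.451 CPM (1 UMI) to 67.7 CPM, a ratio of 150 (26.8 to 5949), and Ccl9 was 91.2 times higher, also from 1 UMI. Ccl11 (eotaxin), which lies between Ccl7 and Ccl12 on the chromosome, was lower, from 154 to 24.4 CPM (0.158, 0.127 to 0.196), and stood at 119.6 CPM on day 14. Ackr2, a receptor that scavenges CC chemokines, was also lower (0.212, 0.135 to 0.325).

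In monocyte/macrophage-like cells 27 of the 37 genes were tested from day 3 to day 14, and 8 were higher and 8 lower, beside 4.88% and 9.03% of all genes. The chemokines Ccl5 (35.4 times), Ccl4 (381 to 2625 CPM) and Ccl3 (6.86 times) were higher. The CCR1 ligands Ccl6 (2591 to 337 CPM) and Ccl9 (0.146) were lower, and so was Ccr1 itself (0.136, 0.0999 to 0.181). From day 3 to day 7, 28 were tested, 9 were higher and 4 lower, beside 5.9% and 3.47% of all genes.

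Of the 10 adhesion genes in the list, 3 of 5 tested were higher on day 7 than on day 3 in endothelial-like cells and 3 of 4 in smooth muscle-like cells. Over the whole list, in endothelial-like cells 9 of 15 tested genes were higher than on day 3 and none lower, among them the adhesion genes Sele (E-selectin, 11.6 times, 4.88 to 36.0) and Icam1 (7.43 times) and the chemokine Ccl5 (5.74 times), beside 18.1% of all genes higher and 5.94% lower. From day 3 to day 7 the summed markers of fibroblasts in this class went from 861 to 1833 CPM, those of monocytes and macrophages from 657 to 1089 CPM and those of endothelial cells from 3716 to 5204 CPM, and their part in these differences was not tested. A single endothelial-like cell of day 7 had 138009 of the 785930 UMIs of the class, and its part in these ratios was not tested. In smooth muscle-like cells 5 of 13 were higher and none lower (3.35% and 3.26% of all genes), with Selp (P-selectin) at 109 CPM against 1.36 CPM (4 UMIs), Icam1 at 3.96 times and the cytokine Il1b at 3.21 times. Over the same days, summed markers of monocytes and macrophages in smooth muscle-like cells went from 95.4 to 273 CPM. Those of fibroblasts went from 10930 to 17030 CPM, and the part of either in these differences was not tested. By day 14 Vcam1 in smooth muscle-like cells was 0.296 of its day 3 level (561 to 166 CPM), when 11.5% of all genes were called lower.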

How the data were processed

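Single-cell suspensions were sequenced from 3′ libraries (1 per day, pooled carotids). The deposited values are raw UMI counts per gene and barcode from Cell Ranger, per the file headers version 3.0.2; the aligned genome is not used here for coordinates, since the build named in the submitters' processing notes (GRCh38) is human. Totals were 2672722, 18989081, 27973418 and 13329564 UMIs for days 0, 3, 7 and 14.

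Barcodes with at least 200 genes and at most 20% mitochondrial UMIs were kept (453 of 6161 failed). Doublets were removed by the highest Scrublet scores at 0.8% per 1000 barcodes of a library (106 removed, 1.72%; the caller's own threshold marked 15). The libraries were clustered together in scanpy 1.11.5 (2000 variable genes without the members and pathway genes, 30 components, 15 neighbours, Leiden resolution 1, leidenalg 0.10.2). A cluster was named from at least 3 markers; 172 cycling cells were assigned by their neighbours where 60% or more had 1 class.

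UMIs were summed per class and day, with exact Poisson intervals, exact conditional intervals of ratios and exact binomial (Clopper-Pearson) intervals of shares, at 95%. A count of 0 allows a level of up to 3 UMIs. A 2-fold difference with at least 20 UMIs in 1 of the days was called, in classes of at least 20 cells. Scripts were tested on simulated counts. The members and lists were chosen with earlier results of these data known. Named pathway genes are the 3 highest and 3 lowest ratios among those called in a comparison, or fewer of them, and 5 similar genes per member; Ccl11 on day 14 was added after its values were seen. Some items under these rules are not reported here. Alternatives covered clustering, doublets, filters, thinning depth and single cells.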

Additional observations from a re-analysis of the deposited data

How the results depend on the processing

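No paired analysis was possible because each day has 1 library. Of 85 alternative values of 12 main results, 58 stayed within the counting interval of the result, and no ratio among these changed its direction. With each library clustered on its own, the values were 40.51 (Ccl8, fibroblast-like, day 3 to day 0), 0.5004 (Ccl12) and 0.521 (Ccr2, monocyte/macrophage-like, day 14 to day 3), and shares of day 3 UMIs were 51.15% (Ccl2), 96.58% (Ccl12) and 52.28% (Ccr2) in monocyte/macrophage-like and 49.49% (Ccl8) in fibroblast-like cells. Averaging the CPM of single cells gave ratios of 132.9 (Ccl7, fibroblast-like, day 3 to day 0), 0.4163 (Ccl2), 0.993 (Ccl12), 0.7117 (Ccr2) and 2.603 (Cx3cr1, monocyte/macrophage-like, day 14 to day 3). Shares moved to 51.22% (Ccl2) and 70.45% (Ccr2) at resolution 1.5, to 88.9% (Ccl12) at resolution 0.6, to 49.87% (Ccl8) and 70.31% (Ccr2) without doublet removal, and to 43.86% (Ccl8) and 59.5% (Ccr2) at 500 genes per barcode. Alternatives chosen after seeing the data gave 278.7 (Ccl7) without the Saa3-led cluster, 50.16 (Ccl2) and 51.9 (Ccl7) with the unnamed shallow cluster added, and, without the cell richest in the gene on each day, 18.25 (Ccl8, fibroblast-like), 0.2717 (Ccl2, monocyte/macrophage-like) and shares of 52.78% (Ccl2), 45.66% (Ccl8) and 95.64% (Ccl12). The cause of these differences was not tested.

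Of 188 alternative values of 37 further results, 132 stayed within the interval, 53 moved and 3 reversed. All 3 concern Ccl2 in smooth muscle-like cells, day 14 to day 3 (main ratio 9.44): it was 0 with each library clustered on its own, 0.7529 at resolution 1.5 and 0 without the cell richest in Ccl2, where day 14 had no UMI. Differences of Ccl8 described above also turned under alternatives and are not among these 3. They are the fibroblast-like difference between days 0 and 7, and the day 14 order of monocyte/macrophage-like and fibroblast-like levels. Day 0 had 2 monocyte/macrophage-like and 7 endothelial-like cells, too few for a level.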

Other observations

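The barcodes that the filters removed held 1556 Ccl2 UMIs of 2595066 UMIs in all (600 CPM) and 583 Ccr2 UMIs (225 CPM). An unnamed cluster of day 7 led by Snhg9 and Gm47283 (332 barcodes, median 752 UMIs) had 491 CPM of Ccl2, 260 CPM of Ccr2 and 96.7 CPM of Cx3cr1.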
